A study of Mus musculus with 6 samples.

Results

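Genes that are commonly used to recognise lymphatic endothelium were measured in the lungs of RBM47 knock-in mice and of their wild-type littermates. The set of 6 was chosen by gene name and holds Prox1, Lyve1, Flt4, Mmrn1, Reln and Vegfc, which makes 6 of the 56262 genes in the count table. All 6 had enough counts to be tested, together with 17114 other genes. None of the 6 passed the test between the genotypes after adjustment for multiple testing, where 1.75% of all tested genes did. Lyve1 and Mmrn1 were higher in R/R lungs by point estimates of 1.31-fold and 1.27-fold that passed the unadjusted test only, Flt4, Reln and Prox1 had point estimates between 1 and 1.12-fold, and that of Vegfc was 0.932-fold.

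The R/R group consisted of 3 lungs of mice that carry the K329R and K332R substitutions of the RNA-binding protein RBM47 on both alleles, and the WT group of 3 lungs of wild-type littermates. The knock-in was made with CRISPR/Cas on the C57BL/6 background and is present in every cell of the animal, so it does not single out the lymphatic endothelium. Mice of both groups were 8 weeks of age and received no treatment, their sex was not in the labels, and the animals of a group were described as biological replicates. Whole lung RNA was sequenced as paired reads of 150 bases, and the counts are those of read pairs per gene. Levels are given as CPM, the counts divided by the TMM-scaled library size and expressed on a common scale for all lungs. A gene is named as called where the edgeR quasi-likelihood test gave it a p, after Benjamini-Hochberg adjustment, of at most 0.05. Whole lung mixes all of its cell types, so fewer cells of a type and less RNA per cell cannot be told apart.

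Lymphatic vessels drain fluid and leukocytes from tissue, and in the lung they run along airways, veins and the pleura. Their endothelium is kept in its lymphatic state by the transcription factor Prox1. VEGF-C is the main growth factor of these vessels and acts on VEGFR-3, which is encoded by Flt4. Lyve1 encodes a hyaluronan receptor of the endothelial surface, Mmrn1 the secreted protein multimerin-1, and Reln the secreted glycoprotein reelin. Of these, Lyve1 is also known from a class of tissue macrophages, Mmrn1 from platelets and Prox1 from cardiac muscle and neuroendocrine cells. This list of other sources is not complete, and it names none for Flt4. Vegfc stands apart because it is a ligand that other cells can supply, rather than a marker of the lymphatic cell itself.

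Between 16815020 and 18071818 read pairs were counted in the R/R libraries and between 16501092 and 18141067 in the WT libraries, so that 1 count corresponded to between 0.0552 and 0.0607 CPM. The lung label held in every library, since the alveolar type 2 marker Sftpc was measured at 12400 to 13800 CPM in R/R lungs and at 10000 to 12200 CPM in WT lungs. The transcript of Rbm47 itself did not pass the test between the groups (log2 fold change 0.0986, SE 0.0821, adjusted p = 0.66), and a count per gene does not show the substitutions. WT 3 stood apart from the other WT lungs. The chi-square per degree of freedom over genes was 8.72 to 9.16 between WT 3 and the other WT lungs, and 5.71 between WT 1 and WT 2. It was 7.88 to 9.01 between WT 3 and the R/R lungs, but 14.5 to 15.9 between WT 1 or WT 2 and the R/R lungs. Results for the 6 genes are therefore also given without WT 3. Among all tested genes 300 were called (1.75%), of which 111 were higher in R/R lungs (0.648%) and 189 were lower (1.10%).

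A further classical lymphatic marker, the chemokine Ccl21a, could not be used in these data. It had 0 or 1 counts in each lung, and 80.6% of its 31-base stretches occur in at least 1 other gene. The GRCm38 genome holds several copies of this chemokine gene, and a stretch of the coding sequence of 2 of them is shown to let a reader see how alike they are. Ccl21a lies on the minus strand at chr4:42772860-42773993. The lines give coding bases 54 to 113 of the GENCODE M21 transcripts, counted from the A of the start codon, and the capital letter marks the base that differs, T84A with the Ccl21a base first.
Ccl21a: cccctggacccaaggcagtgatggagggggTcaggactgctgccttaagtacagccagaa
Ccl21b: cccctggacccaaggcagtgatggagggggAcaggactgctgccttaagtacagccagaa
Over the whole coding sequence, 400 of 402 bases were identical, the other difference being C194T. The counting skipped read pairs with several equal positions, and 5 copies together had only 2 to 15 counts in each lung. In contrast, the 6 genes of the set are nearly unique in sequence. Lyve1, Mmrn1 and Vegfc share no 31-base stretch with another gene, and Flt4, Reln and Prox1 share 0.657%, 1.11% and 1.23% of theirs. Lyve1, Flt4, Mmrn1 and Vegfc overlap no other annotated gene. Prox1 shares 133 exonic bases with the antisense gene Prox1os and Reln 246 with Gm10475, and both of these partners had 0 counts in all lungs.

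To compare the genes with one another, levels were expressed as FPKM, the CPM divided by the length of the merged exons in kilobases. Lyve1 stood at the top with 95 ± 18.6 FPKM (SD, n = 6 lungs of both genotypes), which was 6.99 times the level of Flt4 at 13.6 ± 1.48. Vegfc followed at 7.33 ± 0.649 and Mmrn1 at 3.77 ± 0.805. Reln and Prox1 were both below 1 FPKM, at 0.688 ± 0.134 and 0.486 ± 0.0746. The mean FPKM of Lyve1 was thus 195 times, and that of Flt4 28 times, that of the transcription factor. No neighbours in this order overlapped over the 6 lungs, including Reln, with 0.591 to 0.945 FPKM, and Prox1, with 0.398 to 0.583 FPKM. On the CPM scale, which does not correct for length, Mmrn1 ranked above Vegfc, so the order of these 2 depends on the scale.

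**Figure D1:**
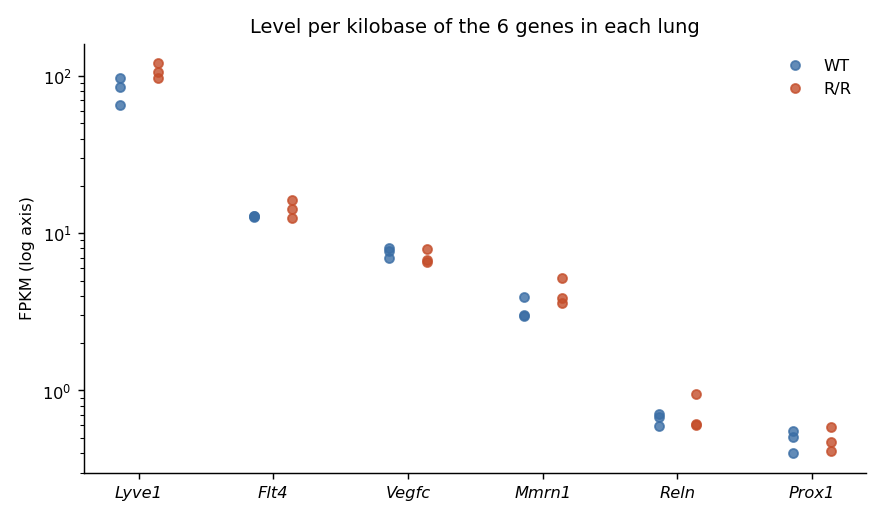
Level of each of the 6 genes in FPKM (log axis) in the 3 WT lungs (blue) and the 3 R/R lungs (red), 1 point per lung. The genes are ordered by their mean, from Lyve1 at 95 FPKM to Prox1 at 0.486 FPKM, and the points of neighbouring genes do not overlap over the 6 lungs.

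The ligand was examined first. Vegfc (ENSMUSG00000031520.6, chr8:54077606-54187096, plus strand of GRCm38) had 16.6, 19.3 and 16 CPM in R/R lungs 1, 2 and 3 and 19.8, 19 and 17 CPM in WT lungs 1, 2 and 3. The groups overlapped, with R/R 2 among the WT values and WT 3 close to the other R/R lungs. Means were 17.3 ± 1.75 and 18.6 ± 1.45 CPM (SD, n = 3 each). The fold change of R/R over WT was 0.932, with a 95% interval of 0.795 to 1.09 (adjusted p = 0.738).

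The receptor of VEGF-C, Flt4 (ENSMUSG00000020357.3, chr11:49609263-49652739, plus strand), was measured at 134, 103 and 118 CPM in R/R lungs and at 104, 106 and 106 CPM in WT lungs. The WT lungs were within 1.35% of one another by their coefficient of variation, against 13.2% in R/R lungs, where R/R 1 was the highest of all lungs and R/R 2 the lowest. Mean levels were 118 ± 15.6 CPM in R/R and 105 ± 1.42 CPM in WT lungs. The log2 fold change was 0.17 (SE 0.0833, 95% interval -0.0133 to 0.351), with an unadjusted p of 0.0662 and an adjusted p of 0.397 in the edgeR test. It was 0.0659 without R/R 1 (unadjusted p = 0.384) and 0.259 without R/R 2 (unadjusted p = 0.0046, adjusted p = 0.169), so either lung moved the estimate by more than 1.5 times.

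Prox1 (ENSMUSG00000010175.13, chr1:190118035-190170714, minus strand), which specifies lymphatic identity, was the lowest of the 6 genes. It was counted 62, 66 and 83 times in R/R lungs, or 3.44, 3.95 and 4.89 CPM, and 55, 77 and 79 times in WT lungs, or 3.34, 4.25 and 4.63 CPM. Each genotype spanned almost the same range, and the means were 4.09 ± 0.735 and 4.07 ± 0.661 CPM. The fold change was 1, but its 95% interval ran from 0.731 to 1.38 (adjusted p = 0.998), so with these 3 lungs against 3 a change within that interval was not resolved. The sign of this near-zero estimate was negative under limma-voom (log2 fold change -0.00294), without R/R 3 (-0.143) and without WT 1 (-0.12).

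Lyve1 (ENSMUSG00000030787.4, chr7:110850607-110863239, minus strand) had the largest difference of the set. It was measured at 350, 310 and 282 CPM in R/R lungs and at 282, 192 and 247 CPM in WT lungs. R/R 3 and WT 1 were at the same level, with R/R 3 the lower by less than 1 CPM, and WT 2 was well below all other lungs. Mean levels were 314 ± 34.2 CPM in R/R and 240 ± 45.8 CPM in WT lungs. The log2 fold change was 0.387 (SE 0.121), a fold change of 1.31 with a 95% interval of 1.09 to 1.57. The unadjusted p was 0.00785 and the adjusted p 0.156 in the edgeR test, and the exact two-sided permutation test gave p = 0.2, where 3 lungs against 3 cannot go below 0.1. Over the 6 fits that each omit 1 lung, the log2 fold change stayed positive, between 0.246 (without WT 2) and 0.517 (without WT 1), and it was 0.405 without WT 3 (adjusted p = 0.142). Lyve1 was called in 2 of 9 other settings, namely without a filter on low counts (adjusted p = 8.82e-07) and with the replicate number as a block (adjusted p = 0.0366).

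Of the secreted products, Mmrn1 (ENSMUSG00000054641.10, chr6:60924976-60989378, plus strand) had 21.3, 22.7 and 30.4 CPM in R/R lungs and 17.8, 17.4 and 23.2 CPM in WT lungs. R/R 3 was the highest, and WT 3 lay above R/R 1 and R/R 2. Mean levels were 24.8 ± 4.91 and 19.5 ± 3.22 CPM. The log2 fold change was 0.348 (SE 0.146), a fold change of 1.27 with a 95% interval of 1.02 to 1.59, with an unadjusted p of 0.0347 and an adjusted p of 0.303. It was 0.489 without WT 3 (adjusted p = 0.0894) and 0.175 without R/R 3 (adjusted p = 0.604), and only without a filter on low counts was the gene called (adjusted p = 0.0263).

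Reln (ENSMUSG00000042453.14, chr5:21884454-22344702, minus strand) had 14.4, 14.3 and 22.4 CPM in R/R lungs and 14, 16.1 and 16.7 CPM in WT lungs. Only R/R 3 lay above the WT lungs, and the coefficient of variation was 27.4% in R/R against 9.09% in WT lungs. The log2 fold change was 0.12 (SE 0.163, 95% interval -0.232 to 0.48, adjusted p = 0.801). It turned to -0.123 without R/R 3, so the direction of the difference rested on that lung.

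**Figure D2:**
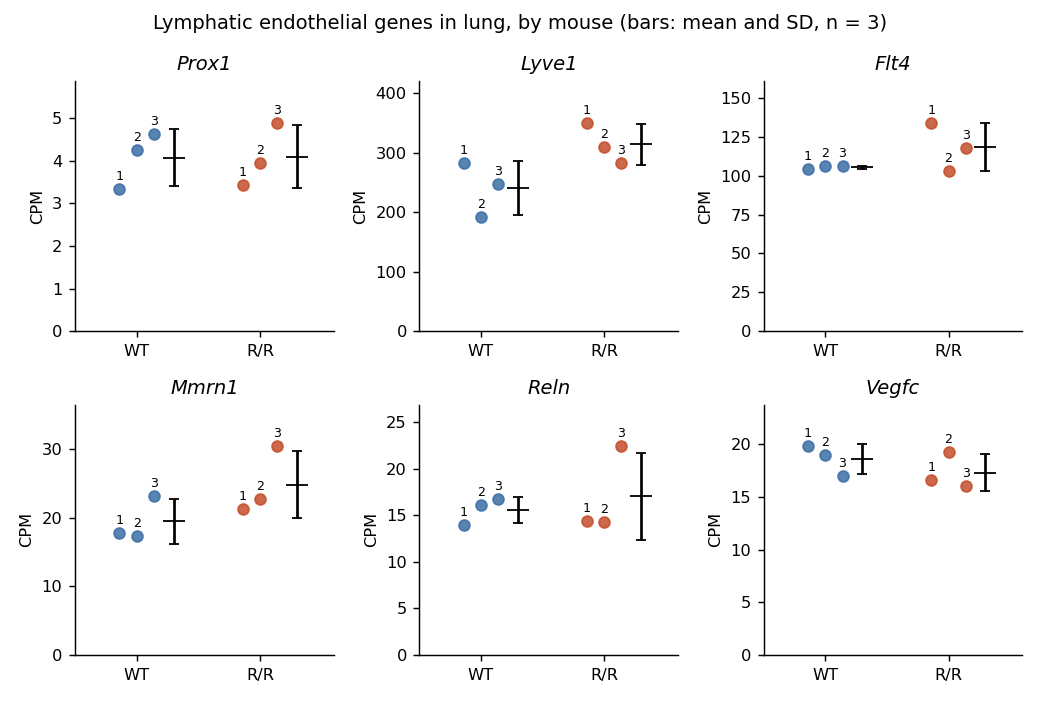
CPM of the 6 genes in each lung, with the lung number beside each point, WT in blue and R/R in red, and the mean and SD of the 3 lungs as bars to the right of the points. Every panel starts at 0, and in no panel do all R/R lungs lie on one side of all WT lungs.

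Taking the 6 genes as a set, 0 were called by the edgeR quasi-likelihood test, where 1.75% of all tested genes were called, and DESeq2, the edgeR exact test and limma-voom also called 0. At an unadjusted p of 0.05, 2 of 6 were higher in R/R lungs (Lyve1 and Mmrn1) and none was lower, beside 6.54% and 7.68% of all tested genes. The log2 fold change was above 0 for 5 of 6 and had a median of 0.147, beside 0.00454 over all tested genes. In none of the 6 were the R/R and WT lungs separate, which was the case for 18.7% of all tested genes. Leaving out any single lung gave 0 calls among the 6. Without WT 3 the log2 fold changes were 0.101 for Prox1, 0.405 for Lyve1, 0.172 for Flt4, 0.489 for Mmrn1, 0.172 for Reln and -0.165 for Vegfc.

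The lungs that were high differed from gene to gene. R/R 3 was the highest lung for Prox1, Mmrn1 and Reln and the lowest for Vegfc, whereas R/R 1 was the highest for Lyve1 and Flt4. Mmrn1 and Reln in R/R 3 were each 0.48 above their own mean over the 6 lungs on the log2 scale, and Lyve1 in the same lung was 0.05 above. WT 2 was the lowest lung for Lyve1 (-0.51) and Mmrn1 (-0.32), but was at the mean for Reln (0). Prox1, Mmrn1 and Reln were also highest among the WT lungs in WT 3 (0.19, 0.09 and 0.06), so they shared the highest lung of each genotype. The 6 genes as a whole did not rise and fall together from lung to lung.

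**Figure D3:**
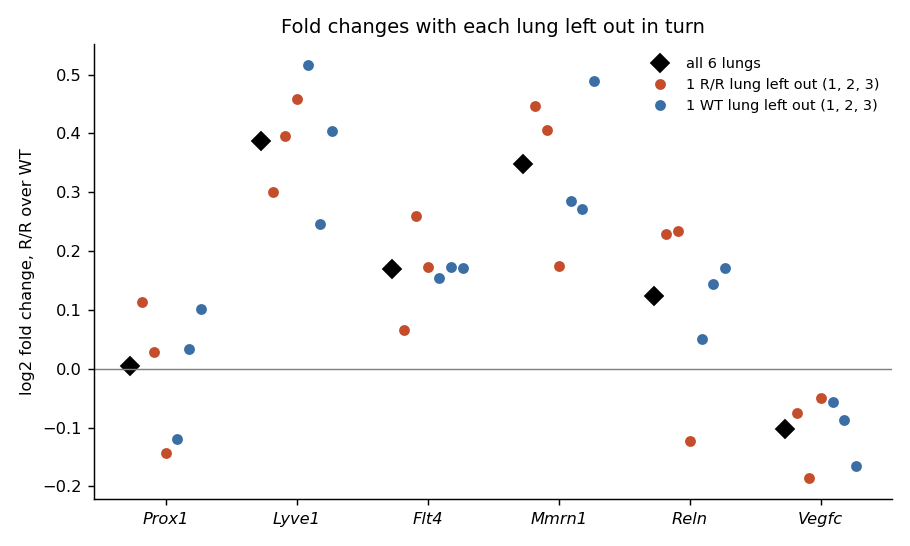
Log2 fold change of R/R over WT for each of the 6 genes with all lungs (black diamond) and with 1 R/R lung (red) or 1 WT lung (blue) left out, in the order 1, 2, 3 from left to right. Lyve1, Flt4 and Mmrn1 stay above 0 and Vegfc below 0 in all 6 cases, while Prox1 (-0.143 to 0.114) and Reln (-0.123 to 0.235) cross it.

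Next, the lymphatic genes were set against the endothelium as a whole, using 10 genes of blood and pan-endothelial cells such as Pecam1 and Cdh5. The mean log2 CPM of this endothelial list was 8.59 ± 0.06 in R/R and 8.61 ± 0.09 in WT lungs. None of its genes was called, beside 1.75% of all tested genes. The mean log2 CPM of Prox1, Lyve1, Flt4, Mmrn1 and Reln was 5.12, 5.06 and 5.35 in R/R lungs and 4.91, 4.91 and 5.1 in WT lungs. WT 3 lay above R/R 2, so the groups overlapped, with means of 5.17 ± 0.15 and 4.97 ± 0.11. Relative to the endothelial list, these 5 genes were 0.22 higher in R/R lungs on the log2 scale, again with overlap. Lyve1 was the only one of the 6 whose groups separated on this relative scale. It stood at -0.21, -0.28 and -0.41 in R/R lungs and at -0.53, -1.08 and -0.57 in WT lungs, a difference of 0.42 (exact permutation p = 0.1, the smallest that 3 against 3 allows). Such separation relative to the endothelial list was found for 13.9% of all tested genes. The part of blood endothelium in the Lyve1 and Flt4 values was not tested.

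Other genes of lymphatic vessels had values on both sides of 0, 5 above and 9 below. Of 16 listed genes 14 were tested, and the remaining 2, Ccl21a and the neuropeptide gene Nts, had at most 3 counts in any lung. None of the 14 was called, beside 1.75% of all tested genes. At an unadjusted p of 0.05, 1 was higher and 4 were lower, beside 6.54% and 7.68% of all tested genes. The groups did not overlap in 4 of the 14, beside 18.7% of all tested genes. The median log2 fold change was -0.094. The list had a summed level of 1470 to 1510 CPM in R/R and 1520 to 1570 CPM in WT lungs. That sum is weighted to abundant genes, since Sox18, Gata2, Stab1, Cp and Itga9 each averaged 182 to 240 CPM in either group. The cells that supply these genes in whole lung were not tested.

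The largest positive value of this list belonged to Foxc2, a transcription factor of lymphatic valves. Its counts were 18, 29 and 44 in the R/R libraries and 15, 7 and 19 in the WT libraries, or 1.77 ± 0.797 against 0.803 ± 0.375 CPM. R/R 1 lay below WT 3, and the log2 fold change of 1.14 (SE 0.44) had an adjusted p of 0.257. The largest negative value belonged to Stab2, a scavenger receptor for hyaluronan that sinusoidal endothelium also carries. It had 2.77, 3.11 and 3.06 CPM in R/R lungs and 4.07, 4.75 and 4.63 CPM in WT lungs. All R/R lungs were below all WT lungs, but the groups were separate for 18.7% of all tested genes. The log2 fold change of -0.588 (SE 0.187) had an adjusted p of 0.161. The exact permutation p was 0.1, the smallest that 3 against 3 allows. The mucin-type glycoprotein gene Pdpn, a common marker of lymphatic endothelium that alveolar type 1 cells also express, was at 132 ± 8.52 CPM in R/R and 132 ± 7.88 CPM in WT lungs.

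**Figure D4:**
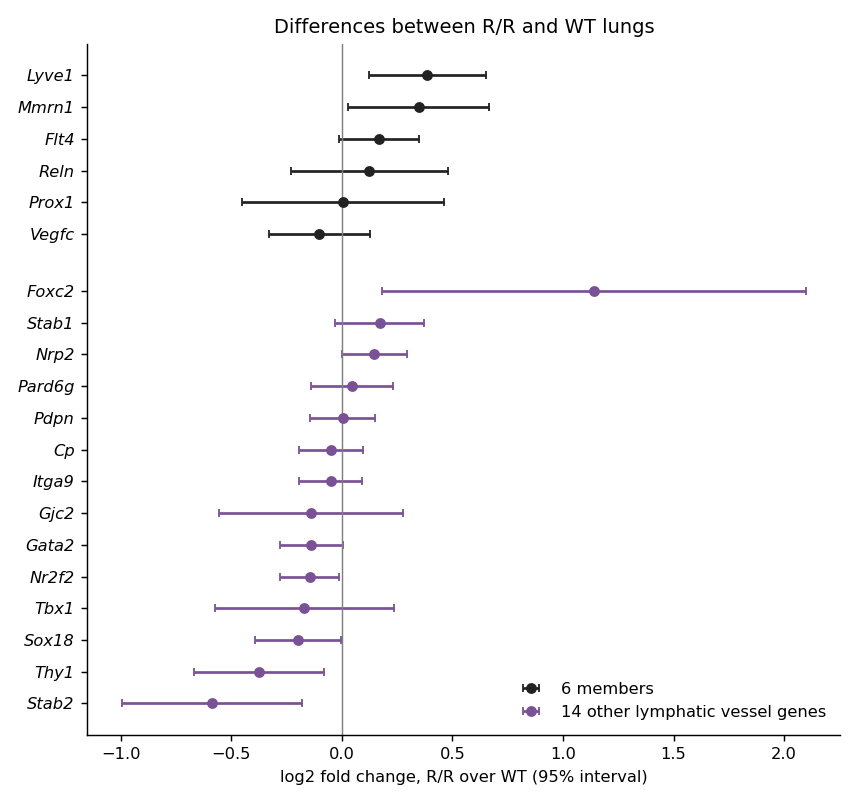
Log2 fold change of R/R over WT with its 95% interval for the 6 genes (black) and for the 14 tested genes of the list of other lymphatic vessel genes (purple). Lyve1, Mmrn1 and Foxc2 have intervals above 0, and Stab2, Thy1, Nr2f2 and Sox18 have intervals below 0. Foxc2 has the widest interval around 1.14, Stab2 is lowest at -0.588, and no gene shown passed the adjusted test.

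The genes around VEGF-C and VEGFR-3 were then examined, namely the second ligand, the proteins that process VEGF-C, co-receptors, and the angiopoietin and adrenomedullin systems, which also act on lymphatic growth. All 20 were tested and 0 were called by the edgeR quasi-likelihood test, beside 1.75% of all tested genes. At an unadjusted p of 0.05, 0 were higher and 1 was lower, beside 6.54% and 7.68% of all tested genes. The list shares Nrp2 and Itga9 with the vessel list above. The median log2 fold change was -0.0159, with 8 values above 0 and 12 below.

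The single gene below the unadjusted threshold was Calcrl, the adrenomedullin receptor, with 1090 ± 63.8 CPM in R/R and 1310 ± 157 CPM in WT lungs (log2 fold change -0.264, SE 0.0899, adjusted p = 0.193). It was called by DESeq2, without a filter on low counts and without WT 3. Adamts14, a protease related to the one that activates VEGF-C, had the largest positive value, at 10.7 ± 1.57 against 8.57 ± 2.76 CPM (log2 fold change 0.324, adjusted p = 0.55). Its log2 fold change was 0.0827 without WT 2 and 0.535 without WT 3. Adm, which encodes adrenomedullin, had the largest negative value, at 5.36 ± 1.89 against 7 ± 0.539 CPM (log2 fold change -0.385, adjusted p = 0.514). Without R/R 3 that value was -0.12, so its place in the list rested on 1 lung. The second ligand of VEGFR-3, Vegfd, was measured at 63.2 ± 8.71 CPM in R/R and 70.5 ± 4.6 CPM in WT lungs (adjusted p = 0.493). The co-receptor Nrp2 was at 120 ± 6.04 and 109 ± 7.75 CPM (adjusted p = 0.357).

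Reelin acts through the receptors Vldlr and Lrp8 and the adaptor Dab1. Of these 3, 0 were called, beside 1.75% of all tested genes. The level of Vldlr was 94.6, 83.2 and 90.5 CPM in R/R lungs and 96.9, 107 and 97.8 CPM in WT lungs. All R/R lungs were below all WT lungs, where 18.7% of all tested genes had separate groups. The log2 fold change was -0.17 (SE 0.0665, unadjusted p = 0.0279, adjusted p = 0.273). Lrp8 had 3.41 ± 0.771 against 2.98 ± 0.326 CPM and Dab1 0.6 ± 0.123 against 0.747 ± 0.261 CPM, neither of them called, and the sign of each turned when 1 lung was left out.

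Because whole lung holds other cells in which these genes are known, markers of those cells were measured in the same fit. Of 7 tested genes for Lyve1-bearing and interstitial macrophages, 6 had log2 fold changes above 0, with a median of 0.256 over the 7. The exception was F13a1, at 21.7 ± 4.23 CPM in R/R and 24.7 ± 5.96 CPM in WT lungs (log2 fold change -0.186, SE 0.173). The list summed to 2430 to 3030 CPM in R/R lungs and 1980 to 2550 CPM in WT lungs, of which Cbr2, also a gene of airway club cells, supplied 1850 to 2840 CPM. The mannose receptor gene Mrc1 was called, with 114, 103 and 119 CPM in R/R lungs and 70.9, 85.7 and 94.2 CPM in WT lungs (log2 fold change 0.421, SE 0.0939, adjusted p = 0.0486). All R/R lungs were above all WT lungs, where 18.7% of all tested genes had separate groups. The call was lost when any lung other than WT 3 was left out (adjusted p between 0.0917 and 0.151), and was kept without WT 3 (adjusted p = 0.0093). With all lungs, the Mrc1 call was also lost by limma-voom (adjusted p = 0.0506). In the edgeR test it was lost with library size as the only scaling (adjusted p = 0.0516) and with a filter of 1 CPM in 3 libraries (adjusted p = 0.0533). The scavenger receptor gene Cd163 was at 8.76 ± 1.34 and 7.55 ± 2.52 CPM. Folr2, a defining marker of the Lyve1-bearing class, had 7 to 22 counts, or 0.563 ± 0.135 against 0.74 ± 0.481 CPM, and was not tested. The part of macrophages in the Lyve1 values was not tested.

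Beside Mmrn1, the platelet list summed to 22.7 to 39.2 CPM in R/R and 27.6 to 34.1 CPM in WT lungs. Of its 5 tested genes 0 were called, beside 1.75% of all tested genes. The defining marker Gp1bb was at 0 in all lungs, for a reason that was not tested. The 5 tested genes were counted in every lung, among them Pf4 with 86 to 121 counts and Ppbp with 112 to 219. The platelet integrin gene Itga2b was highest among R/R lungs in R/R 3, at 14.8 CPM beside 7.83 and 8.55 CPM, the lung in which Mmrn1 was also highest, and it was at 14.9, 15.8 and 12.2 CPM in WT lungs. Beside Prox1, the 5 tested genes of cardiac muscle summed to 63.2 to 117 CPM in R/R and 87.3 to 230 CPM in WT lungs. Myh6 ranged between 1.76 CPM in WT 3 and 98.3 CPM in WT 2. All 5 cardiac genes had negative log2 fold changes with a median of -0.993, but the groups overlapped in each. None was called, and 2 were lower at an unadjusted p of 0.05, beside 7.68% of all tested genes. Of 5 neuroendocrine genes only 2 were tested, at a sum of 5.08 to 7.42 against 4.64 to 5.39 CPM. The part of these cells in the values of Mmrn1 and Prox1 was not tested.

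Tissue attached to the lung was considered because lymph nodes and pleura carry lymphatic vessels. The 4 mesothelial markers summed to 91.9 to 163 CPM in R/R and 61.5 to 101 CPM in WT lungs. All 4 had log2 fold changes above 0, with a median of 0.792. At an unadjusted p of 0.05, 3 of the 4 were higher, beside 6.54% of all tested genes. One of them, Lrrn4, was called, at 17.6 ± 2.65 against 8.78 ± 1.81 CPM (log2 fold change 1.01, SE 0.158, adjusted p = 0.0124). That call was lost without R/R 2 (adjusted p = 0.0699) or WT 1 (adjusted p = 0.0567). Without R/R 3, and likewise without WT 3, 3 of the 4 markers were called. The mesothelin gene Msln was at 51.9 ± 15.7 and 30.7 ± 8.76 CPM and was highest in R/R 1, whereas Upk3b, Lrrn4 and Wt1 were highest in R/R 2. The lymph node stroma list summed to 6.6 to 7.53 against 6.51 to 9.66 CPM, most of it from the complement receptor gene Cr2, with 100 to 144 counts in each lung. Its addressin gene Glycam1 was at 0 in all lungs. The thymus list summed to 5.61 to 7.89 against 8.2 to 9.38 CPM with its defining factor Foxn1 at 0, and the adipose list to 15.5 to 19 against 9.17 to 18.7 CPM. Most of the adipose sum came from Cidec, at 16.3 ± 0.833 and 11.9 ± 3.36 CPM. The defining adipose marker Adipoq had counts only in R/R 3 (10) and WT 3 (17). Plin1 had 26 and 36 counts in these lungs and 3 to 7 in each of the others. Lymphocyte markers went the other way. All 7 had negative log2 fold changes, among them the B cell genes Ms4a1 (log2 fold change -0.991, adjusted p = 0.00675) and Cd79a (-0.667, adjusted p = 0.0491), which fell, the whole list summing to 58.5 to 76.4 CPM in R/R and 108 to 130 CPM in WT lungs. The call of Cd79a was lost without R/R 2, R/R 3, WT 1 or WT 2 (adjusted p between 0.0642 and 0.198). The part of pleura, lymph node, adipose tissue or lymphocytes in the lymphatic values was not tested.

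Finally, genes were ranked by how closely their log2 CPM followed the mean standardized profile of Prox1, Lyve1, Flt4, Mmrn1 and Reln over the 6 lungs. Mmrn1 itself followed this mean most closely among the 5, with a Pearson r of 0.95, followed by Reln (0.78), Prox1 and Flt4 (both 0.57) and Lyve1 (0.37). Of 14373 other genes compared, 183 had r above 0.9. The nearest were Fndc3a and Mars (0.992 each), Trim47 (0.982), and Selp and Lrrc17 (0.981 each). Selp, which encodes the adhesion receptor P-selectin of endothelium and platelets, had 3.84 CPM in R/R and 2.24 CPM in WT lungs on average (log2 fold change 0.77, adjusted p = 0.239), and its log2 fold change was 0.48 without R/R 3 and 1.03 without WT 3. These correlations rest on 6 lungs that also share the genotype contrast and are given as a description. None of the usual lymphatic vessel genes was among the 5 nearest.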

How the data were processed

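Lungs of 3 R/R and 3 WT mice were grouped by the sample labels. The table deposited by the authors holds unnormalized counts of read pairs for each gene of GENCODE M25. Per the labels and the file header, they had used HISAT2 2.1.0 for alignment to mm10 (GRCm38) and featureCounts 2.0.1, without regard to strand, for counting. The supplement of the paper names another version of featureCounts, and edgeR for differential expression where the submitters' processing notes name DESeq2. For 1 of the 6 columns an automatic unit check forced the entry "estimated count", but all 6 deposited columns hold whole counts and none was rounded. The merged exon lengths deposited by the authors served for FPKM. Symbols came from GENCODE M21 (55141 of 56262 identifiers matched).

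In R 4.3.3 with edgeR 4.0.16, filterByExpr (at least 10 counts, 15 in total) left 17120 genes, TMM gave the scaling, and the quasi-likelihood functions glmQLFit and glmQLFTest the comparison, with Benjamini-Hochberg adjustment over all of them. These genes held 99.8% to 99.9% of the counts, and 3 counts correspond to 0.166 to 0.182 CPM per lung, which covers counting error only. An exact permutation test, two-sided, on log2 CPM (prior count 0.5) was added for single genes. Tests were checked on simulated counts. Alternatives were DESeq2 1.42.0, the edgeR exact test, limma-voom (limma 3.58.1), other scalings and filters, a replicate block and leaving out each lung. Correlations of deviations between lungs of the same number, taken over all tested genes, were -0.0139, -0.00355 and -0.0148. Pairing by number was thus not seen over genes as a whole, which does not exclude it for some genes. No 2 libraries were duplicates, since the chi-square per degree of freedom within a genotype was 5.71 to 9.16.

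The 6 genes and all lists were chosen with earlier results of these data known. Beyond the 6, named genes were the called genes and the largest rise and fall of the 3 lymphatic lists, called genes and defining markers of cell type lists, and the 5 genes nearest in profile (mean log2 CPM 1 or higher). Pdpn, Vegfd, Nrp2, Vldlr, Calcrl, Cbr2, Itga2b, Msln, F13a1, Pf4, Ppbp, Cidec, Adipoq, Plin1, Thy1, Nr2f2, Sox18, Gata2, Stab1, Cp and Itga9 were named after their values were seen. A gene of the cell type lists is not reported here.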

Additional observations from a re-analysis of the deposited data

How the results depend on the processing

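None of the 6 genes was called under 7 of 9 alternatives to the edgeR quasi-likelihood test or with any single lung left out (range 0 to 0). Without a filter on low counts 2 were called, Lyve1 (log2 fold change 0.392) and Mmrn1 (0.352), a fit with an unbounded prior for the spread of these genes. Over all tested genes the deviations of lungs with the same replicate number were not correlated, which does not exclude pairing for some genes. With the replicate block 1 was called, Lyve1 (0.398), and 446 genes in all, beside 300 without it. The number of genes called was 541 by DESeq2, 630 by the edgeR exact test, 1109 without a filter, and 65 to 621 with a lung left out, the highest without WT 3. In the 3 lymphatic lists 0 genes were called, but 1 by DESeq2, 2 without a filter, and 0 to 1 with a lung left out. The direction turned for Prox1 by limma-voom (-0.00294) and with a lung left out (-0.143 to 0.114, with -0.12 without WT 1), for Reln (-0.123 to 0.235), for Lrp8 (-0.00843 to 0.287, negative without R/R 3) and for Dab1 (-0.474 to 0.00637, positive without WT 2). The cause was not tested. Lyve1, Flt4, Mmrn1 and Vegfc kept their direction under all alternatives run. Prox1 had the fewest counts of the 6, at 55 to 83 per lung.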

Other observations

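Further gene groups of lymphatic biology were chosen after the values had been seen and are given as a description. Of 12 genes known from lymphatic valves, which keep lymph flowing one way, 11 were tested, and the median log2 fold change was -0.0234 with 4 values above 0 and 7 below. The gap junction gene Gja4, which arteries also express, was lower in R/R lungs at 81.3 ± 5.8 CPM against 108 ± 10.1 CPM in WT lungs (SD, n = 3 each; log2 fold change -0.412, SE 0.0784, edgeR adjusted p = 0.0302), and it was the only one of the 11 that was called. The call was lost without R/R 2, R/R 3, WT 1 or WT 2 (adjusted p between 0.0887 and 0.126). The mechanosensitive channel gene Piezo1 was at 236 ± 11.7 and 262 ± 6.95 CPM (adjusted p = 0.259), and Efnb2, which encodes a membrane ligand of valves and arteries, at 441 ± 24.9 and 396 ± 9.21 CPM (adjusted p = 0.265). Of the valve regulators, Gata2 was at 207 ± 6.68 and 227 ± 16.9 CPM and Nfatc1 at 69.3 ± 2.04 and 70.5 ± 4.18 CPM, neither of them called.

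Of 9 genes known from leukocyte traffic through lymphatics, 8 were tested and 0 were called by edgeR, beside 1.75% of all tested genes. At an unadjusted p of 0.05, 3 of the 8 passed, Ccr7 and Spns2 lower and Icam1 higher, beside 14.2% of all tested genes. The median log2 fold change was -0.105. Ccr7, the receptor that guides dendritic cells and T cells into lymphatic vessels, was at 12.1 ± 0.774 CPM in R/R and 14.8 ± 1.06 CPM in WT lungs (adjusted p = 0.238). Spns2, the exporter of sphingosine 1-phosphate from endothelium, was at 158 ± 11.7 and 188 ± 20.2 CPM (adjusted p = 0.187). The adhesion receptor gene Icam1 was at 469 ± 7.31 and 426 ± 3.62 CPM (adjusted p = 0.273).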
